A study of Homo sapiens with 16 samples.

Results

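SBF2-AS1 and SBF2 are a long non-coding RNA gene and a protein-coding gene that overlap on opposite strands of chromosome 11. They were followed in G401 cells, a human kidney rhabdoid tumour line, after CRISPR knockout of BRD9. The members were picked by gene symbol, 2 genes of the 57820 in the gene tables, and both were among the 15027 genes with enough reads to be tested. They were chosen with their differences between BRD9 KO and control already known, so those differences are given below as a description without a test, whereas the time course of the control cells was tested.

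Total RNA was sequenced from G401 cells that stably expressed Cas9 and had been infected with a guide RNA vector. The BRD9KO groups carried a guide against BRD9 and the LacZ groups a control guide against the bacterial gene LacZ. Each guide was sampled on days 1, 2, 3 and 5 with 2 libraries per day, giving 8 groups and 16 libraries. All groups shared the Cas9 background. The study describes puromycin selection of infected cells, without saying in the sources used here how the sampling days relate to it. It names no clones for these libraries and no edited share, so edited and unedited cells may have been measured together. The study calls the replicates biological without saying whether they were separate cultures or infections, and the p-values below cover the spread between these libraries, which may in part be technical.

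SBF2, also called MTMR13, is a catalytically inactive member of the myotubularin phosphatases, which remove phosphate from position 3 of phosphoinositide lipids on endosomes. It binds the active phosphatase MTMR2, carries a DENN domain of the kind that activates Rab GTPases, and is mutated in a recessive demyelinating form of Charcot-Marie-Tooth neuropathy. SBF2-AS1 is transcribed from the opposite strand and has been studied as a long non-coding RNA in several cancers. BRD9 is a bromodomain subunit of a BAF (SWI/SNF) chromatin remodelling complex, and rhabdoid tumours such as G401 lack SMARCB1, a subunit of other BAF complexes.

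In the GRCh37 annotation SBF2-AS1 (ENSG00000246273.2) ran on the plus strand over chr11:9779815-9832882. SBF2 (ENSG00000133812.10) ran on the minus strand over chr11:9798323-10326424, so that 65.1% of the SBF2-AS1 gene body lay inside the 3′ end of SBF2. Among transcripts matched by ID from the tables to a later GENCODE release, most SBF2 ones in another version, 5 stretches with 674 bases in all were exonic in both genes. They made up 16.9% of the 3977 exonic bases of SBF2-AS1 and 4.24% of the 15903 exonic bases of SBF2. The libraries kept no strand, so a read that falls wholly within such a stretch cannot be told apart by origin. Of the 76-base windows along spliced SBF2-AS1 transcripts, 308 of 4005 (7.69%) also occurred in SBF2 transcripts, and these were 1.93% of the 15961 SBF2 windows.

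**Figure D1:**
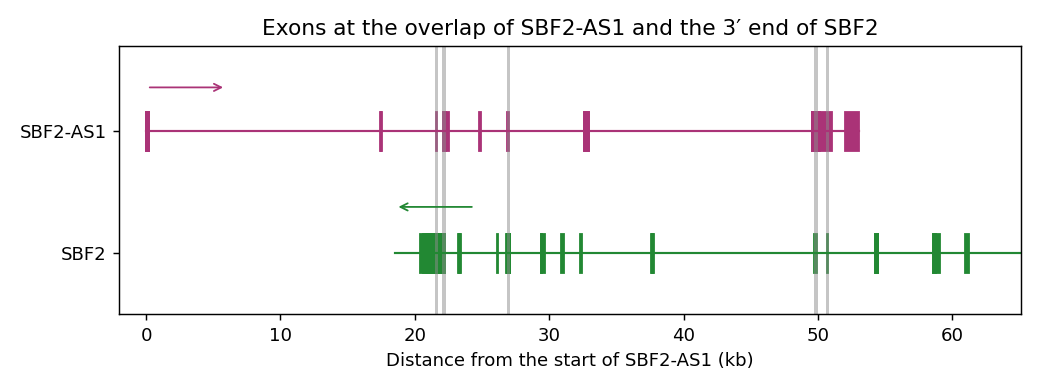
Exons (boxes) of SBF2-AS1 and of the 3′ end of SBF2, from a later GENCODE release with transcripts matched by ID to the tables, against the distance in kb from the start of SBF2-AS1. Arrows give the direction of transcription and grey bands mark the 5 stretches that are exonic in both genes, 3 of them between 21 and 27 kb and 2 near 50 kb.

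The stretches that lay entirely within SBF2 coding sequence, 3 in number, are shown because reads from them fit both genes. They are written 5′ to 3′ on the plus strand, the strand of SBF2-AS1, so SBF2 mRNA carries the reverse complement. Capitals mark the bases that are exonic in both genes and lower case the 10 flanking bases on each side.
chr11:9806698-9806816: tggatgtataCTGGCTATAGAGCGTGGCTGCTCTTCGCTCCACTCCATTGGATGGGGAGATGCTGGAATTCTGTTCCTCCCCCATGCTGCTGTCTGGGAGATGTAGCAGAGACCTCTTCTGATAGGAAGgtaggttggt
chr11:9829547-9829732: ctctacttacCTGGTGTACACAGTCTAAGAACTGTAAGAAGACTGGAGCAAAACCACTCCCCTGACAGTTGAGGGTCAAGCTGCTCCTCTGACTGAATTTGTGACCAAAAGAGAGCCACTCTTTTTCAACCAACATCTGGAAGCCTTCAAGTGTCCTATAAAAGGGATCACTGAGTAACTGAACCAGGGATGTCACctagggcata
chr11:9830448-9830549: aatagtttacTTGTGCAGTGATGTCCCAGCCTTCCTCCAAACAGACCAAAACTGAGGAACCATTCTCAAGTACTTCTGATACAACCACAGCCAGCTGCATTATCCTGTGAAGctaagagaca
The first, of 119 bases, equalled an exon of 1 SBF2-AS1 transcript and ended at a GT on the plus strand, the start of an SBF2-AS1 intron. The second and the third, of 186 and 102 bases, each equalled a whole SBF2 exon that lay inside a longer SBF2-AS1 exon. Both were flanked by AC and CT, which read as GT and AG on the SBF2 strand. The second stretch was exonic in 3 of the 6 SBF2-AS1 transcripts and the other stretches shown in 1 each.

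Library totals were 9185866 to 16560749 expected counts in the BRD9KO libraries and 11252871 to 15430142 in the LacZ libraries. BRD9 itself gave 16.6 to 25.9 CPM (expected counts relative to the library total, scaled by TMM) in the 8 BRD9KO libraries and 45.8 to 64.5 in the 8 LacZ libraries, with no overlap. SMARCB1 reached at most 0.19 TPM (transcript level per length, relative to the library) and VIM, a mesenchymal marker, 1366 to 1922 TPM, in keeping with the G401 label. Of the markers of other cells, 6 were examined (PTPRC, EPCAM, CDH1, S100B, GFAP and ALB), each was at or below 2.32 TPM in every library, and their summed level was 0.41 to 2.04 TPM in LacZ and 0.11 to 3.23 TPM in BRD9KO.

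SBF2-AS1 was the more abundant RNA of the pair in every library. Its level was 88.7 to 172.3 TPM, with a median of 130.6 TPM, whereas SBF2 was at 19.1 to 34.4 TPM with a median of 27.6 TPM. The ratio of the TPM values, SBF2-AS1 to SBF2, ranged from 3.85 to 6.32 over the LacZ libraries and from 3.48 to 8.20 over the BRD9KO libraries. Expected counts were 914 to 2374 for SBF2-AS1 and 270 to 729 for SBF2, so SBF2 was measured with the larger counting error.

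In LacZ cells SBF2-AS1 was highest on day 1, at 151.7 and 155.7 CPM in the 2 libraries. Day 2 gave 125.9 and 124.2 CPM, day 3 gave 128.4 and 123.9 CPM, and day 5 gave 122.2 and 129.6 CPM. The day 1 libraries stood above all 6 later ones, and the libraries of days 2, 3 and 5 overlapped. The step from day 1 to day 2 was a log2 fold change of -0.30 ± 0.05 (SE, n = 2 per group), a level 0.813 times that of day 1, with an adjusted p of 6.9e-05 by edgeR's quasi-likelihood test. The steps from day 2 to day 3 (0.01 ± 0.05, adjusted p = 0.892 in edgeR) and from day 3 to day 5 (-0.0041 ± 0.05, adjusted p = 0.972) did not pass the threshold, and their 95% intervals were -0.09 to 0.11 and -0.10 to 0.10. From day 1 to day 5 the log2 fold change was -0.29 ± 0.05, with an adjusted p of 0.000127 in edgeR. Such changes were common: 31.2% of all genes tested passed between days 1 and 2, 25.1% between days 2 and 3, 15.5% between days 3 and 5, and 25.6% between days 1 and 5.

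In the BRD9KO libraries SBF2-AS1 began at a similar level and went on falling. Day 1 gave 156.9 and 159.1 CPM, and day 2 gave 137.1 and 152.8 CPM. The level was then 105.8 and 106.1 CPM on day 3, and 83.0 and 88.8 CPM on day 5. From day 1 to day 5 the log2 fold change was -0.88 ± 0.05 in BRD9KO, which left 0.545 times the day 1 level, against the 0.818 times of LacZ. In these bulk libraries a loss of cells with high SBF2-AS1 and a lower level per cell cannot be told apart.

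**Figure D2:**
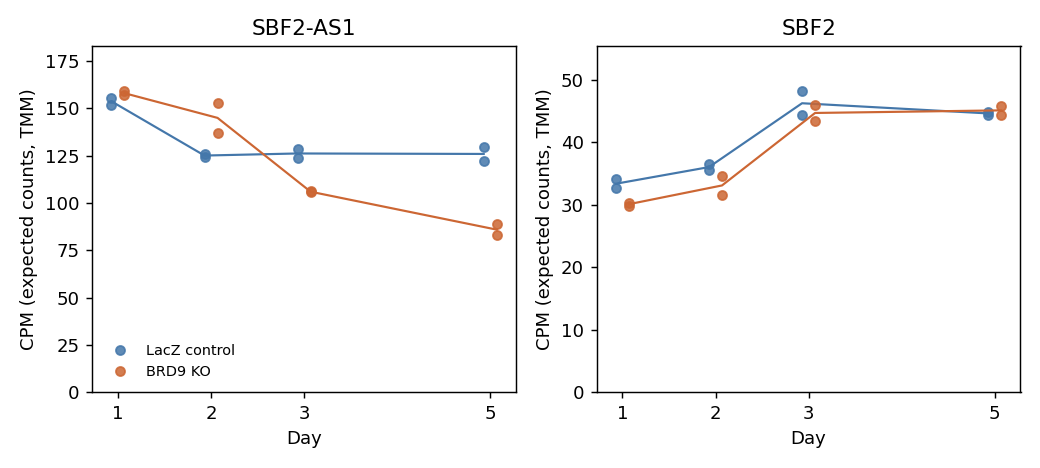
CPM (expected counts relative to the library total, TMM) of SBF2-AS1 (left) and SBF2 (right) against the day, with 1 point per library and lines through the means of the 2 libraries. SBF2-AS1 in BRD9 KO lies above LacZ on day 2 and below it on days 3 and 5, down to 83.0 CPM, while SBF2 rises in both guides to 44.4 CPM or more on day 5.

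Set against LacZ on the same day, SBF2-AS1 in BRD9 KO changed sides between day 2 and day 3. On day 1 both BRD9KO libraries lay just above both LacZ libraries, by a mean of 4.30 CPM, a log2 fold change of 0.04 ± 0.05. With 2 libraries per group, unchanged genes can separate like this too. Their share among all genes was not counted, in this or any other comparison of 2 libraries against 2. On day 2 they lay above by 19.9 CPM (0.21 ± 0.05). This day 2 value rested on libraries that stood apart, since BRD9KO replicate 1 was at 137.1 and replicate 2 at 152.8 CPM: it was 0.13 without replicate 2 and 0.29 without replicate 1.

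On day 3 both BRD9KO libraries were below both LacZ libraries, with a mean of 84.0% of LacZ and a log2 fold change of -0.25 ± 0.05. On day 5 the mean was 68.2% of LacZ, 85.9 ± 4.08 CPM (SD, n = 2) against 125.9 ± 5.25 CPM, with a log2 fold change of -0.54 ± 0.05. Of all genes tested, 90.3% had a smaller absolute fold change on day 5. The difference over days 3 and 5 less that over days 1 and 2 was -0.52 ± 0.05, a contrast in which 7.43% of all genes were called. These differences helped to choose the gene, and the share of all tested genes called between the guides, 0.539% on day 1, 2.7% on day 2, 10.4% on day 3 and 15% on day 5, is given as background only.

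The same order held for SBF2-AS1 per length. On day 5 it was at 88.7 and 90.7 TPM in BRD9KO and at 132.6 and 135.0 TPM in LacZ, and on day 2 at 138.8 and 156.4 TPM against 128.6 and 125.8 TPM. Its abundance-weighted transcript length, which RSEM computes from the estimated isoform shares, stayed between 1575 and 1800 bases in all libraries.

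**Figure D3:**
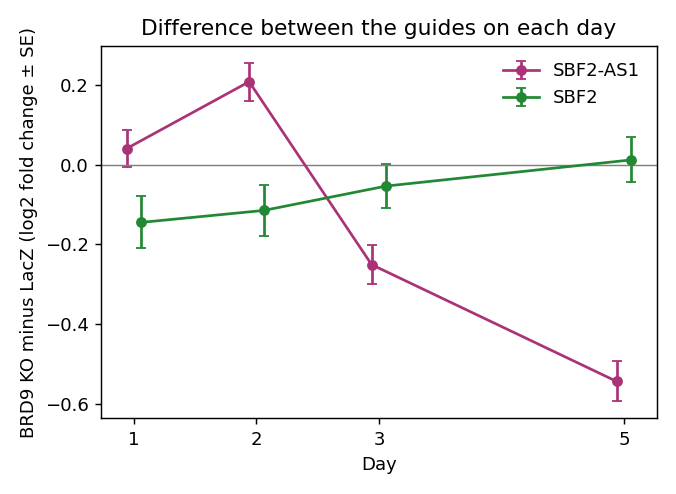
Log2 fold change of BRD9 KO over LacZ on each day for SBF2-AS1 and SBF2, with bars of 1 SE from the edgeR fit (n = 2 libraries per group). SBF2-AS1 passes from 0.21 on day 2 to -0.54 on day 5, and SBF2 stays between -0.15 and 0.01.

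SBF2 moved the other way over time in LacZ cells when counted in reads. Day 1 gave 34.1 and 32.6 CPM, and day 2 gave 35.5 and 36.5 CPM. The level then reached 48.2 and 44.3 CPM on day 3, and 44.8 and 44.4 CPM on day 5. All libraries of days 3 and 5 were above all libraries of days 1 and 2. The change from day 1 to day 5 was a log2 fold change of 0.42 ± 0.06, 1.34-fold, with an adjusted p of 3.44e-05 in edgeR's quasi-likelihood test. Most of it fell between day 2 and day 3 (0.36 ± 0.06, adjusted p = 0.000187 in edgeR). The steps from day 1 to day 2 (0.11 ± 0.06, adjusted p = 0.209 in edgeR) and from day 3 to day 5 (-0.05 ± 0.06, adjusted p = 0.644) did not pass.

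The rise of SBF2 was not detectable on the scale per length. In TPM the LacZ libraries were at 28.5 and 25.8 on day 1, at 25.2 and 28.2 on day 2, at 28.4 and 32.6 on day 3, and at 34.4 and 25.1 on day 5, and the days overlapped. On log2(TPM + 1) the change from day 1 to day 5 was 0.11 ± 0.18, with an adjusted p of 0.768 in limma. The abundance-weighted length of SBF2 in LacZ was 2025 and 2128 bases on day 1 and 2467 and 2260 bases on day 2. It was 2873 and 2313 bases on day 3, and 2237 and 2994 bases on day 5. More reads were thus spread over a longer estimated transcript on day 5 than on day 1. Replicate 1 of day 5 lay below both day 2 libraries, and the change of length was not tested. Which of the 14 SBF2 transcripts carried the additional reads was not tested, since the gene tables hold no value per transcript.

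**Figure D4:**
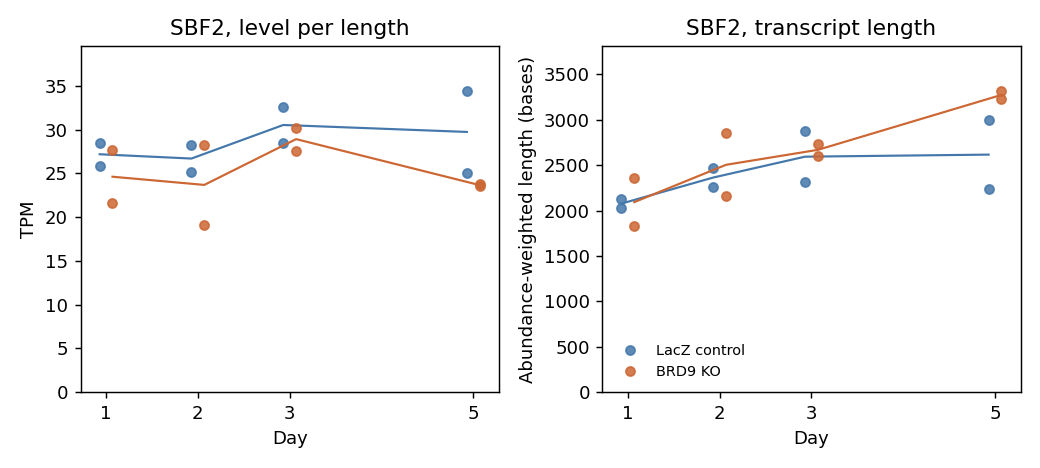
SBF2 in TPM (left) and its abundance-weighted transcript length in bases (right) against the day, with 1 point per library and lines through the means. The length reaches 3232 and 3315 bases in BRD9 KO on day 5, the highest of all libraries, while TPM shows no rise there.

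Between the guides SBF2 differed little in counts on days 3 and 5. On day 1 it was at 29.8 and 30.3 CPM in BRD9KO, below both LacZ libraries, a log2 fold change of -0.15 ± 0.07. On day 2 it was at 34.6 and 31.5 CPM, again below both (-0.11 ± 0.06). On days 3 and 5 the guides overlapped, with BRD9KO levels of 43.4 and 45.9 CPM on day 3 (-0.05 ± 0.06) and of 45.8 and 44.4 CPM on day 5 (0.01 ± 0.06). Of all genes tested, 71.1% had a smaller absolute fold change on day 1, 59.7% on day 2, 27.8% on day 3 and 5.51% on day 5.

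Per length the day 5 picture for SBF2 was another one. BRD9KO stood at 23.8 and 23.5 TPM and LacZ at 34.4 and 25.1 TPM, so the guides did not overlap, and the log2(TPM + 1) difference was -0.30 ± 0.18. The LacZ libraries lay further apart from each other than the lower of them lay from BRD9KO. The transcript length was 3315 and 3232 bases in BRD9KO and 2237 and 2994 bases in LacZ.

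In BRD9KO cells SBF2 rose by 0.58 ± 0.06 on the log2 scale from day 1 to day 5, 1.49-fold in counts, while its TPM went from 27.6 and 21.6 to 23.8 and 23.5. The number of SBF2-AS1 reads per SBF2 read therefore fell in both guides. It went from 4.46 and 4.77 on day 1 to 2.73 and 2.92 on day 5 in LacZ, and from 5.26 and 5.25 to 1.81 and 2.00 in BRD9KO. On day 5 the guides did not overlap in this ratio.

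Over the 8 LacZ libraries log2 CPM of SBF2-AS1 and SBF2 had a Pearson r of -0.67 (exact permutation p = 0.0638, two-sided, adjusted p = 0.0638 over the 2 guides). Spearman's rho was -0.55 (exact permutation p = 0.171, adjusted p = 0.171). Without the 2 libraries farthest from the SBF2-AS1 median, which were those of day 1, r was 0.24 over 6 libraries, so the relation rested on them. Over the 8 BRD9KO libraries r was -0.95 and rho -0.83, and r without the 2 farthest libraries was -0.99. These are descriptions because those libraries entered the choice of the genes, as the LacZ libraries did on the control side. In each guide the 8 libraries were 4 days with 2 libraries each, so the relation follows the days. The permutation shuffled the 8 libraries as if they were independent, so its p-values cannot decide whether the 2 genes are related.

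RSEM assigns reads that fit several transcripts by probability and gives the uncertainty of each count as a posterior standard deviation. It was 8.73 to 15.1 reads for both genes, and within a library the values of the 2 genes were equal to within 0.04 reads. It was 0.437 to 1.08% of the SBF2-AS1 count and 1.43 to 3.70% of the SBF2 count. Relative to the square root of the count it was 0.278 for SBF2-AS1 and 0.496 for SBF2 in the median over libraries, above 82.3% and 88.0% of all tested genes. An exchange of reads between the genes was not tested. The summed level of the pair on day 5 was 128.8 and 133.1 CPM in BRD9KO against 167.0 and 174.0 CPM in LacZ, a log2 fold change of -0.38 ± 0.04. SBF2-AS1 made up most of that sum in every library.

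Among all genes with an average log2 CPM of at least 1, 12237 in number, the patterns most like SBF2-AS1 over the 16 libraries were those of IFT80, an intraflagellar transport gene (r = 0.95), LGI1, a secreted neuronal protein (r = 0.95), DHRS3, a retinaldehyde reductase (r = 0.94), GSTM4, a glutathione transferase (r = 0.94), and HMGA2, a chromatin architectural protein (r = 0.93). Those most like SBF2 were CCDC86 (r = 0.97), PPRC1, a transcriptional coactivator of the PGC-1 family (r = 0.96), SLC7A1, a cationic amino acid transporter (r = 0.95), EIF3B, a translation initiation factor subunit (r = 0.95), and CCDC85C (r = 0.95). SBF2-AS1 and SBF2 themselves had an r of -0.77. The libraries share days and guides, and the values are descriptions.

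SBF2-AS1 was an abundant RNA for its class. Of 841 genes with an antisense symbol (-AS and a number), 228 were tested, and SBF2-AS1 ranked 2 by its mean LacZ level of 136.5 TPM, after C17orf76-AS1 at 647.7 TPM and before FGD5-AS1 at 77.5 TPM. The median of the 228 was 3.75 TPM. Its ratio to the sense partner, 4.78 for the mean TPM in LacZ, ranked 9 of 203 pairs with both genes tested. In 27 of these pairs the antisense RNA was the more abundant, and the median ratio was 0.128.

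Over days 3 and 5, 9 of the other 227 antisense RNAs were higher and 13 lower in BRD9 KO than in LacZ at an adjusted p under 0.05, against 21.5% called of all genes tested (10.6% higher and 10.9% lower). Their median log2 fold change was -0.0087 and that of all genes -0.000302. Their median absolute log2 fold change was 0.204 against 0.101 for all genes. The share called is thus no measure of the size of their changes, and the part played by low read numbers was not tested. In the same contrast SBF2-AS1 had -0.40 ± 0.03, and 30 of the 228 had a lower value. In 202 other pairs the antisense RNA was called in 17, the sense gene in 71 and both genes in 9, beside 21.5% called of all genes tested. Of these 9, 7 pairs moved in the same direction and 2 in opposite directions. How many such pairs unrelated genes would give was not counted, so no relation within pairs is read from these numbers. Some sense genes, such as DLGAP1, entered several pairs. Without strand, reads from sequence that is exonic in both genes of a pair cannot be told apart by origin. The exon overlap of the other pairs was not examined.

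The highest called antisense RNAs were WWC2-AS2 (log2 fold change 1.92 ± 0.61), DLGAP1-AS2 (0.81 ± 0.06) and GNG12-AS1 (0.64 ± 0.17), and the lowest were DHRS4-AS1 (-2.65 ± 0.65), DLGAP1-AS3 (-1.57 ± 0.36) and HOXC-AS3 (-0.86 ± 0.27). Only DLGAP1-AS2 of these 6 had over 100 reads in each library of days 3 and 5, with 22.2 ± 1.57 CPM in BRD9KO and 12.7 ± 1.39 CPM in LacZ (SD, n = 4). WWC2-AS2 had 1 to 14 reads a library and DHRS4-AS1 0 to 70.2, and DHRS4 has close copies that share reads, so their values are uncertain.

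Those neighbouring genes that passed the threshold over days 3 and 5 were higher in BRD9 KO. This list, like those below, was drawn up with earlier results of these data known, so its counts and p-values may depend on them. Of 21 listed neighbours on 11p15.4, 15 were tested, and over days 3 and 5 in BRD9 KO 7 were higher and 0 lower, against 10.6% called higher and 10.9% called lower of all genes. The median log2 fold change of the 15 was 0.09. At an unadjusted p under 0.05 in edgeR, 9 were higher and 1 lower. SWAP70, an actin-binding signalling protein, ends 5.3 kb before SBF2-AS1 on the same strand (chr11:9685624-9774540) and was at 173.1 and 176.0 CPM in BRD9KO on day 5 against 139.5 and 132.6 CPM in LacZ. Its difference over days 3 and 5 was 0.28 ± 0.03 (adjusted p = 1.23e-06 in edgeR). ADM, the gene of the vasodilator peptide adrenomedullin, starts next to the 5′ end of SBF2 (chr11:10326620-10328944) and had 0.09 ± 0.03 (adjusted p = 0.0536 in edgeR).

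The other neighbours that passed in edgeR were TMEM41B, an endoplasmic reticulum lipid scramblase (0.37 ± 0.04), NRIP3 (0.30 ± 0.09), ZNF143, a zinc finger transcription factor (0.23 ± 0.06), DENND5A, a DENN domain protein (0.20 ± 0.03), WEE1, the mitotic inhibitory kinase (0.19 ± 0.03), and IPO7, a nuclear import receptor (0.10 ± 0.02). All 7 were among the 9 tested neighbours before SBF2-AS1, and 0 of the 6 tested beyond SBF2 passed, where 3 had an unadjusted p under 0.05 in edgeR. The full list had 5 genes called in DESeq2 as in limma on TPM, fits in which the share of all genes called was not counted. The split by side was noticed after the values were seen. EIF4G2 (0.03 ± 0.01), RNF141 (-0.02 ± 0.04), CTR9 (-0.07 ± 0.03), ZBED5 (-0.01 ± 0.04), ZBED5-AS1 (-0.19 ± 0.14), TMEM9B (0.09 ± 0.04) and TMEM9B-AS1 (0.05 ± 0.44) did not pass.

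**Figure D5:**
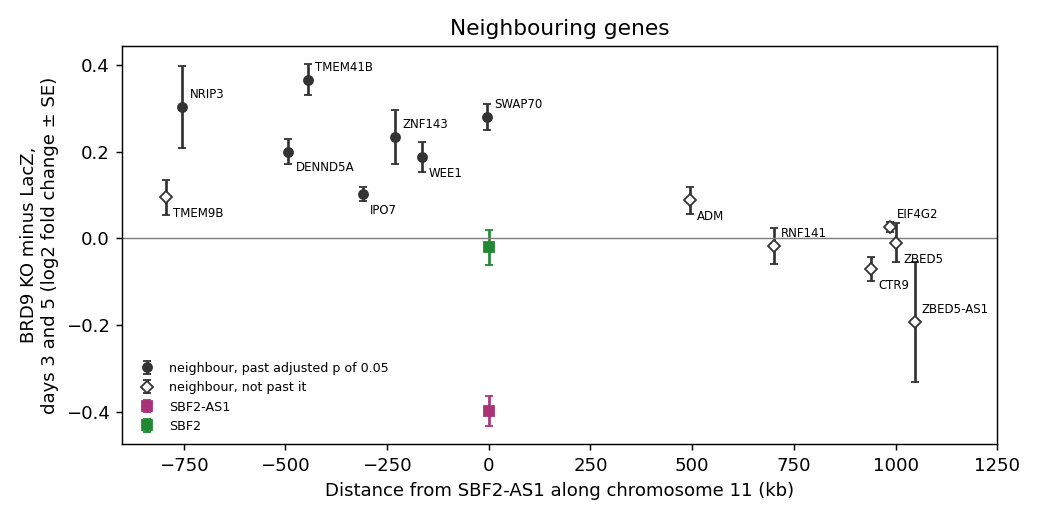
Log2 fold change of BRD9 KO over LacZ on days 3 and 5 (bars, 1 SE) against the distance in kb from SBF2-AS1 along chromosome 11, negative before its start, for tested neighbours with a mean LacZ level over 1 CPM. The 7 neighbours past the threshold (filled) lie before SBF2-AS1, with values from 0.10 to 0.37, and SBF2-AS1 lies at -0.40.

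Over days 3 and 5, 1 of 14 tested myotubularin genes, SBF2's own family, was higher and 0 lower in BRD9 KO. This was 7.14% of the list against 21.5% called of all genes, with a median log2 fold change of 0.01 against -0.000302. In limma on log2(TPM + 1) 0 of the family were called, a fit in which the share of all genes called was not counted. The one called was MTMR10, an inactive myotubularin (0.20 ± 0.05, adjusted p = 0.00407 in edgeR). SBF1, the closest relative of SBF2 (-0.02 ± 0.03), and MTMR12, an inactive adaptor (0.02 ± 0.04), did not pass. Of 16 tested DENN domain genes, 1 was higher and 1 lower (median 0.09), 12.5% against 21.5% of all genes. These were DENND5A and DENND4C, a Rab10 exchange factor (-0.14 ± 0.04), and DENND5B had 0.03 ± 0.02.

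Of 13 tested enzymes that act on phosphoinositides, 1 was higher and 2 lower (median 0.03), 23.1% against 21.5% of all genes. INPPL1, the 5-phosphatase SHIP2, had 0.23 ± 0.04. INPP4B, a 4-phosphatase, had -0.25 ± 0.02, and INPP5D, the 5-phosphatase SHIP1, -1.13 ± 0.21. PIK3C2A (-0.04 ± 0.03) and PIKFYVE (0.03 ± 0.03), both lipid kinases, did not pass.

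Of 15 Rab and endosome partners, 2 were higher and 2 lower (median -0.0084), 26.7% against 21.5% of all genes. The endosomal tethering protein EEA1 had -0.33 ± 0.04 and ZFYVE26, a protein that binds phosphatidylinositol 3-phosphate, -0.30 ± 0.03. WDFY1, another binder of that lipid, had 0.12 ± 0.02 and the late endosome GTPase RAB7A 0.08 ± 0.02. RAB11A (0.03 ± 0.02) and RAB5C (-0.03 ± 0.03) did not pass. Of 13 demyelinating neuropathy genes, 8 were tested and 0 passed in edgeR (median 0.0026), against 21.5% of all genes. Of the 8, 0 had an unadjusted p under 0.05, and 0 were called in DESeq2 or limma, where the share of all genes was not counted. They included LITAF (0.05 ± 0.03).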

How the data were processed

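The deposited tables, 1 per library, hold genes with RSEM values. The authors aligned reads to hg19 with STAR and estimated expression with RSEM, and their comparisons used DESeq2 (versions not given in the sources used here). The deposited expected counts are estimated read numbers that need not be whole. The deposited TPM values are levels per length, relative to the library, and the deposited FPKM values, which RSEM scales by length and library total, were not used. The deposited posterior standard deviations and abundance-weighted lengths were used as given, and the length exceeded the effective length by 75 bases, from which a 76-base window was taken.

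Expected counts were rounded, genes were kept with at least 10 reads (15 in total) by edgeR's filter, and 15027 remained. edgeR 4.0.16 (TMM, quasi-likelihood) in R 4.3.3 was fitted with 1 mean per guide and day over all 16 libraries, with 8 residual degrees of freedom, and p-values were adjusted by Benjamini-Hochberg over all genes tested (threshold 0.05). The code was tested on simulated data. Totals of 9185866 to 16560749 counts per library limit the precision of SBF2 more than that of SBF2-AS1. Each group has 2 libraries, and their counts differed by 1.05 to 1.16 times the counting noise (median over genes), much alike in all 8 groups, and each was counted as a sample. Alternatives were DESeq2 1.42.0, limma 3.58.1 on log2(TPM + 1) and log2(TPM + 0.1), other filters and scaling, posterior mean counts, the replicate block and each library left out. Correlations used SciPy 1.17.1.

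The members and lists were chosen with earlier results of these data known. Named were the members, BRD9, the listed neighbours, in each other list up to 4 called genes per direction with the smallest p over days 3 and 5 and up to 2 uncalled with the highest level, the 5 genes most correlated with each member, and the 3 highest and 3 lowest called antisense RNAs. Other genes named only to place a rank (C17orf76-AS1, FGD5-AS1) were chosen after their values were seen. Coordinates and sequences are from GRCh37 with GENCODE lifted to that build. Of 30478 genes with 1 transcript of the same version in both annotations, 99.8% had the same length. Of the transcripts, 6 of 6 SBF2-AS1 and 13 of 14 SBF2 were found by ID, but only 4 and 2 in the same version, so the exon overlaps may differ from those in the annotation behind the deposited values. PECAM1 and MTRNR2L8, though listed, were not analysed here.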

Additional observations from a re-analysis of the deposited data

Results flagged for a closer look

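The difference of SBF2-AS1 between BRD9 KO and LacZ was above 0 on day 2 and below 0 on days 3 and 5. Both BRD9KO libraries lay above both LacZ libraries on day 2 and below them on days 3 and 5. They also lay above them on day 1, but the log2 fold change there, 0.04 ± 0.05, was smaller than its SE. The share of all genes whose libraries separate in this way was not counted, here or in the other comparisons without overlap. The log2 fold change on day 3 was lower than that on day 1 by a value of -0.29 and lower than that on day 2 by a value of -0.46. For day 5 the values were -0.58 against day 1 and -0.75 against day 2. The difference between the days was not tested, because these contrasts entered the choice of the gene.

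For other genes the difference over days 3 and 5 less that over days 1 and 2 passed edgeR's interaction test at an adjusted p under 0.05, where 7.43% of all genes passed. Among the neighbours these were TMEM41B (0.21), ADM (0.21), SWAP70 (0.16), DENND5A (0.15), IPO7 (0.085) and CTR9 (-0.16). In the lipid and endosome lists they were INPPL1 (0.25), ZFYVE26 (-0.23), INPP4B (-0.27) and EEA1 (-0.32).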

How the results depend on the processing

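The tested LacZ changes of SBF2-AS1 kept their direction and side of the threshold in all 27 alternatives for day 2 against day 1 (-0.34 to -0.22) and for day 5 against day 1 (-0.34 to -0.14). SBF2's LacZ calls did not survive on log2(TPM + 1), with 0.19 for day 3 against day 2 and 0.11 for day 5 against day 1, or on log2(TPM + 0.1), with 0.19 and 0.11. With the counts of both genes summed, the values were 0.10 for day 3 against day 2, not past the threshold, and reversed, -0.22 for day 2 against day 1 and -0.14 for day 5 against day 1, since SBF2-AS1 makes up most of the sum.

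The summed counts gave BRD9 KO minus LacZ differences of 0.0085, 0.14, -0.19 and -0.38 on days 1, 2, 3 and 5, and -0.36 for days 3 and 5 less days 1 and 2. SBF2 in log2(TPM + 1) had -0.19 on day 2, -0.30 on day 5 and -0.0198 for late less early, and in log2(TPM + 0.1) -0.20, -0.31 and -0.0191. The cause was not tested, and neither was the change of length. Leaving out each library, SBF2-AS1 ranged from 0.13 to 0.29 on day 2 and from -0.60 to -0.50 on day 5, and SBF2 from -0.19 to -0.055 on day 2 and from -0.11 to 0.013 on day 3, where it was 0.013 without LacZ replicate 1.

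In both TPM fits called genes over days 3 and 5 fell from 2 to 1 of the DENN domain list and from 1 to 0 of the myotubularins. The Rab and endosome partners went from 4 to 2 and the antisense RNAs (SBF2-AS1 included) from 23 to 11. In DESeq2 8 antisense RNAs were called. The share of all genes called was counted only in the main fit, so none stands beside these counts or the next ones. Leaving out each library gave 1 to 3 for the DENN list (1 without BRD9KO day 5 replicate 2 or LacZ day 5 replicate 2), 0 to 1 for the neuropathy genes (1 without LacZ day 3 replicate 1) and 14 to 23 for the antisense RNAs (14 without LacZ day 3 replicate 2).

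No pairing by replicate number was seen: the correlation of same-numbered deviations was -0.0123, -0.0489, -0.0245 and -0.0176 on days 1, 2, 3 and 5. Replicates differed little beyond counting noise, so these values cannot show that the samples were unpaired. With the replicate block within days SBF2-AS1 was -0.32 and SBF2 0.42 for LacZ day 5 against day 1, and the block ended or added no call of the members. The late less early difference has no fit with only its own libraries, since it uses all of them.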
